A study of Mus musculus with 6 samples.

Results

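The genes described here are 5 that encode proteins of eosinophil granules (Ear1, Ear2, Ear6, Prg2 and Prg3) and Ccr3, the receptor through which eosinophils follow eotaxin chemokines. They are the 6 rows of the deposited table, out of 9295, that carry these symbols, and all 6 passed the filter on low counts. They were chosen by their counts in these same 6 libraries, where earlier results placed them among the genes higher in the libraries labelled KO, so their differences between the groups are given as a description, with no test. RNA came from bone marrow of mouse acute myeloid leukemia. The 3 Con samples carry PAPOLA flox/flox, a gene flanked by recombination sites, and the 3 KO samples a PAPOLA KO, and both groups are labelled leukemia. PAPOLA is poly(A) polymerase alpha, which adds poly(A) tails to new messenger RNA. The strain, age, sex, Cre driver, the way the leukemia was started and any sort of cells are not stated in the labels. Whether replicates were separate mice is not stated either, so p-values measure the spread among 3 libraries a group, and this may be technical spread.

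Eosinophils are granulocytes that grow in bone marrow under interleukin 5, interleukin 3 and GM-CSF and that depend on the transcription factor GATA1 and on factors of the C/EBP family. Their granules hold cationic proteins. Prg2 encodes major basic protein, the core of the crystalline granule, and Prg3 a homolog of it. The Ear genes encode eosinophil-associated ribonucleases, a family of close copies in the mouse. Major basic protein is also found in basophils and mast cells, in smaller amounts. In RNA from whole tissue, fewer cells of a type and less RNA per cell cannot be told apart.

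The 3 ribonuclease genes are copies of one another, and their sequences show how far their counts can be separated. The RefSeq promoter table (build GRCm38.p6) holds an entry for 5 of the 6 genes, and none for Prg2. The deposited counts name only a human build, so these positions are those of RefSeq and not of the counting. The 250 bases before the listed start of Ear1 (chr14:43819640-43819889, minus strand), Ear2 (chr14:44102404-44102653, plus strand) and Ear6 (chr14:51853518-51853767, plus strand) are given 5′ to 3′. Capitals in Ear1 and Ear2 mark a match to TTGCNNAA, a form of the C/EBP motif, and capitals in Ear6 mark the bases aligned to it.
Ear1: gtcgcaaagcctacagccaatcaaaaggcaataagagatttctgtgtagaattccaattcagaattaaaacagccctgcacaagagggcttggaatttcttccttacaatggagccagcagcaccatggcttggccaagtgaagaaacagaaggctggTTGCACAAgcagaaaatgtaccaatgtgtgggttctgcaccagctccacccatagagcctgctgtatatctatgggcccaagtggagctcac
Ear2: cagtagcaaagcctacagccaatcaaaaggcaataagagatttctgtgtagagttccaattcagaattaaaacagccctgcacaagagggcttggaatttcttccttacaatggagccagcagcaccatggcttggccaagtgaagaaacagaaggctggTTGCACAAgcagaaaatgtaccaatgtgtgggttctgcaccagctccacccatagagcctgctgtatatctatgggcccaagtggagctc
Ear6: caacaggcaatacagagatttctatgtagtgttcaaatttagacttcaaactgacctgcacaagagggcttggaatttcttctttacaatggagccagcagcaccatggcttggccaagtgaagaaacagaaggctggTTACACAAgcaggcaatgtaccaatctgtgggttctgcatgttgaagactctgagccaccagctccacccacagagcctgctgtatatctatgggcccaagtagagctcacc
Over the aligned bases the Ear1 and Ear2 windows were 99.2% identical, with 2 mismatches in 248 bases. Ear6 was 92.6% identical to Ear1 (17 mismatches in 229) and 93.0% identical to Ear2. Ear6 holds no match to TTGCNNAA in this window. Of 32851 promoter windows in the table, 9.56% hold that motif on either strand.

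The transcripts were alike to a lesser degree. The Ear1 transcript (713 bases, GENCODE M21, paired with its RefSeq accession) and the Ear2 transcript (719 bases) were 96.9% identical, with 22 mismatches. Ear6 was 89.2% identical to Ear1 and 89.3% to Ear2. Windows were compared among 1 transcript each of Ear1, Ear2, Ear6, Ear10 and Ear14. Further copies of the family were not searched, so the true shares may be higher. Of the 50-base windows of Ear1, 28.6% occur unchanged in another of these transcripts, against 37.6% for Ear2 and 1.36% for Ear6. With 100-base windows the shares were 2.44%, 13.9% and 0%. Prg2 and Prg3, at 73.7% identity, shared no window of 50 bases. The sources used here do not give the read length.

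Deposited values of the closest pair, Ear1 and Ear2, were not all whole numbers. In replicates 1, 2 and 3, Ear1 had 183.52, 127 and 100 counts for Con, and 1712.4, 1633.53 and 1363 counts for KO. For Ear2 the Con values were 170.48, 164 and 145, and the KO values were 1620.6, 1480.47 and 1346. In the 3 libraries where these values are not whole, the sum of Ear1 and Ear2 is whole (354 in Con replicate 1, 3333 in KO replicate 1 and 3114 in KO replicate 2). The counts of Ear6, Ccr3, Prg2 and Prg3 were whole in every library. Single values of Ear1 and Ear2 are less certain than their sum, since reads of near-identical copies may be split.

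All further levels are counts per 1000000 counts of a library (CPM), from rounded counts and library totals scaled by TMM, a trimmed mean of the differences between libraries. Column totals ran from 11253928 to 11436212 in Con and from 8875021 to 9768131 in KO, and 1 CPM stood for 7.77 to 13.2 counts. The groups differed in most genes. With edgeR's quasi-likelihood test and Benjamini-Hochberg adjustment at 0.05, 82% of the 8358 genes that passed the filter were called, 39.6% higher and 42.4% lower in KO. The groups did not overlap in 84.5% of genes, with KO higher in 40.5% and lower in 44%. The targeted gene Papola stood at 290.7 ± 6.42 CPM for Con, against 339.1 ± 23.8 CPM for KO (SD, n = 3 each; log2 fold change 0.22, edgeR adjusted p = 0.0291, and -0.13 with library size only, adjusted p = 0.186). Its call was lost in 8 of the alternatives, and when a single library was dropped it held only if that was KO replicate 3 (adjusted p = 0.00857). Whole-gene counts of Papola were thus no lower with the KO label, a deleted part was not counted apart, and directions rest on the labels. Con replicates 2 and 3 were nearly as close as counting noise (chi-square per degree of freedom 1.68, against 17.7 to 23.7 for the other pairs). With these libraries summed as 1 sample, the log2 fold changes of the 6 genes were 4.10 for Ear1, 3.86 for Ear2, 2.21 for Ear6, 7.43 for Ccr3, 1.21 for Prg2 and 0.88 for Prg3.

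Each of the 6 genes was higher in KO than in Con, but by very different amounts, from 1.81-fold for Prg3 to 173-fold for Ccr3. In all 6 the groups did not overlap, which is what the choice of the genes led to and was true, with KO higher, of 40.5% of all genes. Of the 6, all but Prg3 were past 2-fold, as were 22.9% of all genes, and Ccr3 and Ear1 were past 16-fold, as were 4.12%; the choice of the genes used this difference, and nothing is read from these shares. The median of all genes tested was a log2 fold change of -0.06, or -0.41 with library size only.

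**Figure D1:**
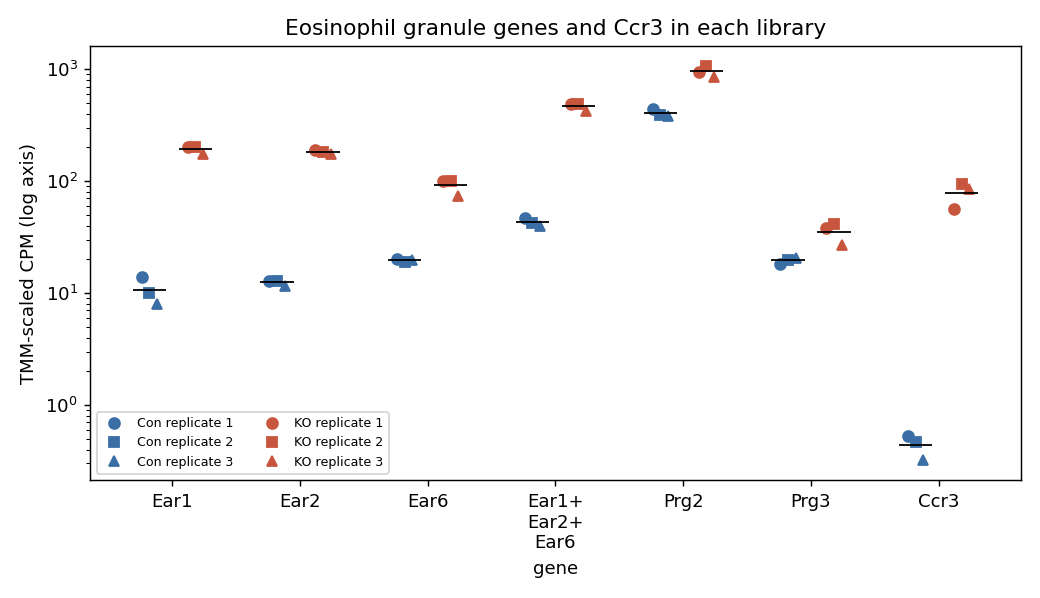
TMM-scaled CPM (log axis) of the 5 granule genes, of the summed Ear1, Ear2 and Ear6, and of Ccr3, with 1 point per library and black lines at the group means (blue Con, red KO, 3 libraries each). For each gene the 3 red points lie above the 3 blue points, and Ccr3 goes from 0.440 CPM on average in Con to 78.5 CPM in KO.

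Ear1 (gene ID 13586) measured 13.9, 9.98 and 7.995 CPM in replicates 1, 2 and 3 of Con, and 200, 201.5 and 175.3 CPM in those of KO. Con replicate 1 lay above the other Con libraries, and every KO library lay far above all of Con. The log2 fold change was 4.17 (SE 0.18). Ear2 (13587) measured 12.9, 12.9 and 11.6 CPM in Con and 189.4, 182.5 and 173.2 CPM in KO. Its libraries were the most even of the 6 genes in KO, with a coefficient of variation of 4.47%, where the median of all genes was 12%. The log2 fold change of Ear2 was 3.87 (SE 0.09).

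Ear6 (93719), the copy that shares the fewest windows with the others, measured 20.3, 19.0 and 19.8 CPM in Con and 100.2, 100.3 and 74.2 CPM in KO. The Con libraries were even, and KO replicate 3 was lower than the other KO libraries but still above all of Con. Its log2 fold change of 2.22 (SE 0.13) corresponds to 4.65-fold. Added before scaling, the 3 copies gave 42.8 ± 3.93 CPM for Con against 465.5 ± 37.2 CPM for KO (SD, n = 3 each). That sum, which does not depend on how reads were split among these 3 copies, had a log2 fold change of 3.44 (SE 0.11), or 10.9-fold. Ear2 shares 6.32% of its 150-base windows with a copy outside the 3, so reads split with such a copy could still change the sum. Ear1 and Ear2 alone, summed, had 4.02 (SE 0.12). The fourth Ear row of the table, Ear10, had 4 counts over Con and 30 over KO, did not pass the filter, and left the sum of all Ear rows at 3.44.

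The copies, whose transcripts are of nearly the same length, changed places within the sum. Ear6 held 43.1%, 45.4% and 50.3% of the Ear counts in Con replicates 1, 2 and 3, and was the most abundant copy in each. In KO it held 20.5%, 20.7% and 17.6%, and was the least abundant. Ear1 held 20.3% to 29.5% in Con and 40.9% to 41.6% in KO. Ear2 held 27.4% to 30.8% in Con and 37.7% to 41.0% in KO. These shares are free of the scaling between libraries, and for each copy the groups did not overlap. The shares of a library add up to the whole, so they are not separate results. They restate the unequal fold changes of genes chosen by these same counts, and nothing further is read from the lack of overlap.

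**Figure D2:**
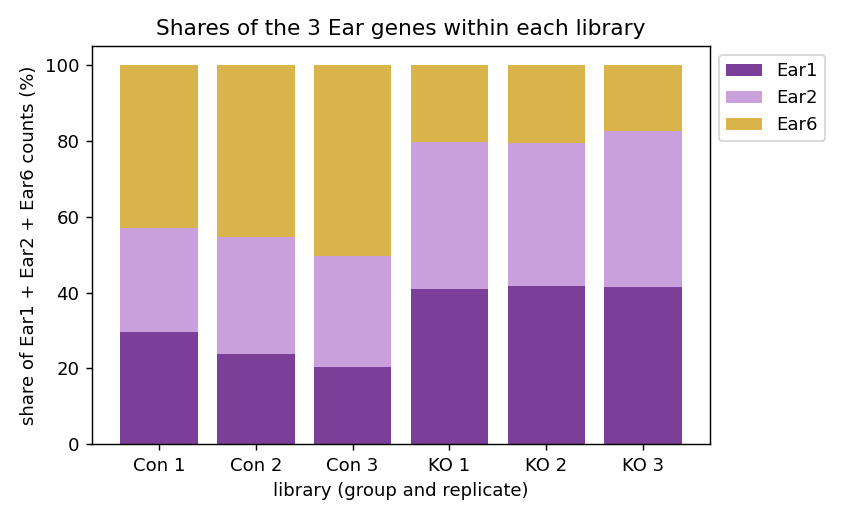
Share (%) of each of the 3 ribonuclease genes in the summed Ear1, Ear2 and Ear6 counts, 1 bar per library, without scaling. Ear6 takes 43.1% to 50.3% in the Con libraries and 17.6% to 20.7% in the KO libraries.

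Prg2 (19074), major basic protein, was abundant in both groups. It measured 442.4, 388.5 and 383.5 CPM in Con and 937.5, 1075 and 854.0 CPM in KO. The mean of 404.8 ± 32.7 CPM for Con against 955.5 ± 112 CPM for KO (SD, n = 3 each) gave a log2 fold change of 1.24 (SE 0.11), which was 0.88 with library size only. Prg3 (53856), the homolog, measured 18.2, 19.8 and 20.7 CPM in Con and 37.7, 41.6 and 27.0 CPM in KO. KO replicate 3 stood closest to Con for both genes. For Prg3 with library size only, that library measured 23.7 CPM where the highest Con library measured 23.0 CPM, and the log2 fold change was 0.50 in place of 0.86 (SE 0.16).

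Ccr3 (12771) showed the widest difference of the 6. The 3 Con libraries held only 7, 6 and 4 counts, a pooled level of 0.442 CPM (exact 95% Poisson interval 0.258 to 0.708, which covers counting error only). In KO replicates 1, 2 and 3 the counts were 480, 764 and 662, or 56.1, 94.2 and 85.2 CPM. KO replicate 1 was the lowest of the KO libraries for Ccr3, while KO replicate 3 was the lowest for the 5 granule genes. The log2 fold change was 7.43 (SE 0.30), the 71st highest of the 8358 genes tested. Those of Ear1, Ear2 and Ear6 ranked 321st, 367th and 819th, and that of Prg2 1602nd.

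Per length of transcript, Prg2 led in both groups. In Con it stood at 483.1 ± 39 CPM per kilobase, followed by Ear6 at 27.6 ± 0.912, Prg3 at 20.6 ± 1.31, Ear2 at 17.3 ± 1.03 and Ear1 at 14.9 ± 4.24, with Ccr3 at 0.135 ± 0.0333 (SD, n = 3 each). The 3 libraries of Ear1 (11.2 to 19.5) overlapped those of Ear2 (16.1 to 17.9) and of Prg3 (19.2 to 21.8), so that order does not hold beyond the spread. In KO the order was Prg2 at 1140 ± 134 CPM per kilobase, Ear1 at 269.7 ± 20.6, Ear2 at 252.7 ± 11.3, Ear6 at 128.4 ± 21.0, Prg3 at 37.3 ± 7.95 and Ccr3 at 24.0 ± 6.08. Ear1 and Ear2 overlapped there, as did Prg3 (28.5 to 43.8) and Ccr3 (17.1 to 28.8).

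Set against Prg2 within each library, the other genes did not keep a fixed proportion. Per 100 Prg2 counts the summed Ear copies had 10.7, 10.8 and 10.3 counts in Con and 52.2, 45.04 and 49.5 in KO. Ccr3 went from 0.120, 0.121 and 0.0834 to 5.98, 8.76 and 9.97 per 100 Prg2 counts. Within either group the Ear to Prg2 proportion varied little, and the groups lay far apart.

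**Figure D3:**
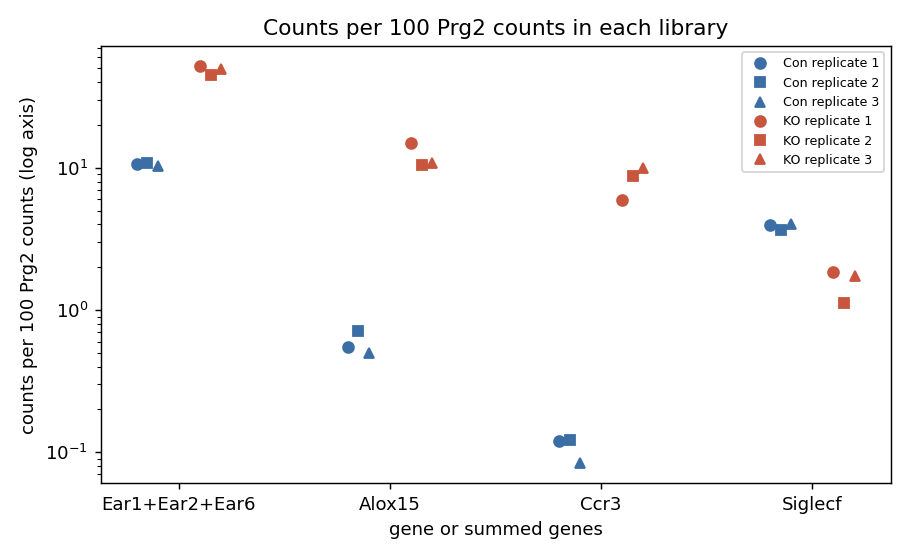
Counts per 100 Prg2 counts (log axis) of the summed Ear copies, of Alox15, of Ccr3 and of Siglecf in each library (blue Con, red KO), without scaling. The Ear copies, Alox15 and Ccr3 lie higher in the KO libraries, and Siglecf lies lower, at 1.12 to 1.84 against 3.66 to 4.00.

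Other genes of eosinophils did not share one direction. Of a list of 28 genes found in eosinophils, several of them shared with macrophages, platelets or mast cells, 11 were in the table and 9 were tested. Of these, 3 rose and 4 fell in KO and 2 did not pass, where 82% of all genes passed, 39.6% higher and 42.4% lower. The median log2 fold change was -0.08, close to the -0.06 of all genes tested. The split is thus near that of all genes and is not particular to this list. With library size only, 5 fell. Eosinophil peroxidase (Epx) and the interleukin 5 receptor chain Il5ra, both defining genes of the lineage, were not analysed here.

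Siglecf (233186), a surface lectin used to identify mouse eosinophils, measured 17.4, 14.2 and 15.4 CPM in Con and 17.3, 12.1 and 14.9 CPM in KO. The groups overlapped, and the log2 fold change of -0.08 (SE 0.16) did not pass (edgeR adjusted p = 0.637). With library size only it was -0.44 (adjusted p = 0.0272). The name eosinophil thus holds for what the 6 genes are known for, while this marker was not higher in KO. In Con, Prg2 at 404.8 CPM stood beside Ccr3 at 0.440 CPM.

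Alox15 (11687), a lipoxygenase of eosinophils and resident macrophages, measured 2.42, 2.75 and 1.92 CPM in Con and 139.7, 111.7 and 92.5 CPM in KO. It rose by a log2 fold change of 5.59 (SE 0.20, edgeR adjusted p = 2.14e-08). F5, coagulation factor V, rose by 2.92 (SE 0.14, adjusted p = 7.16e-08), and the inhibitory receptor gene Pirb by 1.19 (SE 0.18, adjusted p = 0.000195).

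The 4 that fell include genes that mast cells and basophils also use. Il1rl1, the receptor for interleukin 33, measured 217.9 to 311.0 CPM in Con and 9.13 to 17.1 CPM in KO, a log2 fold change of -4.24 (SE 0.23, edgeR adjusted p = 3.39e-07). Ltc4s, leukotriene C4 synthase, fell by 2.87 (SE 0.27), the adenosine receptor gene Adora3 by 2.89 (SE 0.26) and the tetraspanin gene Cd9 by 1.68 (SE 0.10). Ptger4, a prostaglandin E receptor, stood at 0.30 (SE 0.16, adjusted p = 0.101), and at 0.43 without KO replicate 1 (adjusted p = 0.0245).

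**Figure D4:**
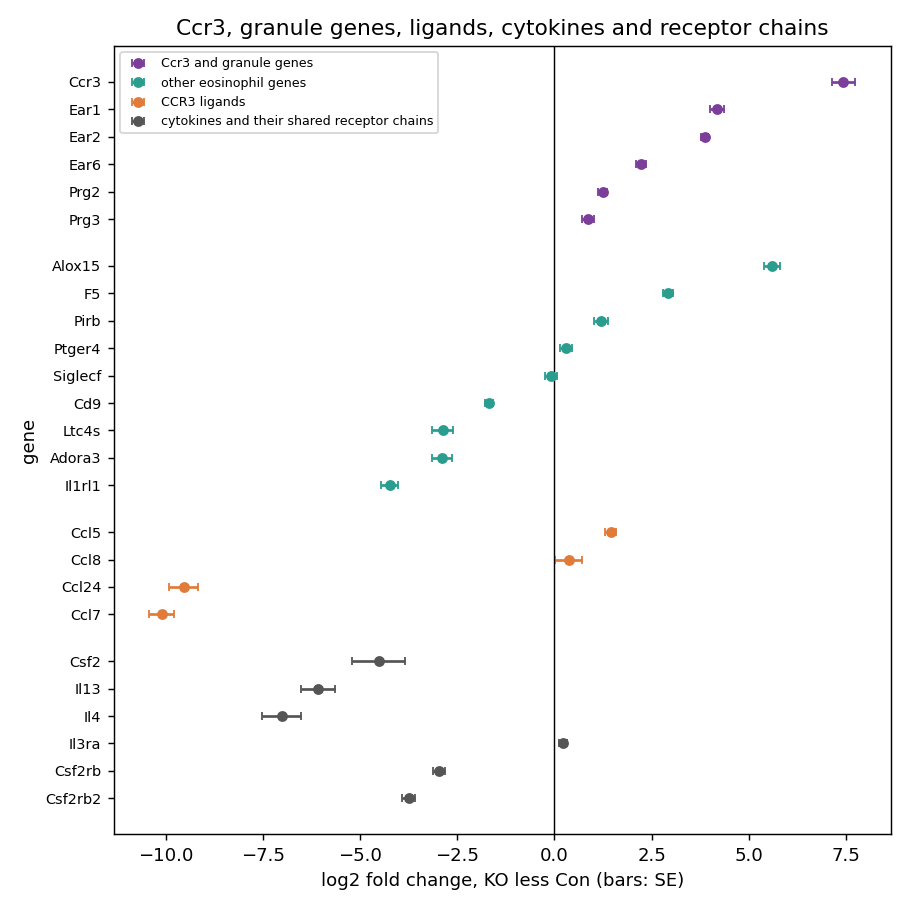
Log2 fold change (KO less Con) with its SE for Ccr3 and the granule genes, for other eosinophil genes, for ligands of CCR3, and for growth cytokines with their receptor chains, from 1 fit over all genes. Ccr3 stands at 7.43 while the ligand genes Ccl24 and Ccl7 stand at -9.54 and -10.10.

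The genes of CCR3 ligands went different ways. Of 6 listed ligands, 4 were in the table, of which 2 fell, 1 rose and 1 did not pass, where 42.4% of all genes fell and 39.6% rose. Ccl24 (56221), eotaxin-2, had 2844, 1724 and 1649 counts in Con and 2, 1 and 2 counts in KO. These are 160.9 ± 47.2 and 0.205 ± 0.0715 CPM (SD, n = 3 each). Its log2 fold change was -9.54 (SE 0.38, edgeR adjusted p = 5.94e-08). Every KO library was close to 0 while Con replicate 1 was the highest. Ccl7 (20306), which also signals through other receptors, had 7455, 11510 and 10695 counts in Con and 8, 7 and 2 in KO (log2 fold change -10.10, SE 0.32, adjusted p = 1.91e-08). Ccl5, which also binds other receptors, rose from 34.0 ± 2.19 to 92.6 ± 20.1 CPM (1.45, SE 0.15, adjusted p = 1.09e-05). Ccl8 measured 7.88 to 11.8 CPM in Con and 7.98 to 21.9 CPM in KO, and the groups overlapped (0.36, SE 0.35, adjusted p = 0.359; the sign turned in 1 of the alternatives, where it was as low as -0.21). Eotaxin-1, Ccl11, was not analysed here.

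Other chemokine receptors also went both ways. Besides Ccr3, 15 receptor genes of the list were tested, and 9 rose and 6 fell, where 39.6% of all genes rose and 42.4% fell. Ccr3 lies in a cluster of such genes on chromosome 9. Its neighbour in the RefSeq gene order, Ccr2, the receptor that draws monocytes from marrow, rose from 26.1 ± 1.33 to 329.4 ± 32.4 CPM (log2 fold change 3.66, SE 0.10, edgeR adjusted p = 5.66e-09). Among the others that rose were Cxcr2, a receptor of neutrophils (4.13, SE 0.14), and Cxcr4, which holds cells in marrow (2.23, SE 0.11). Among those that fell was Ccr7, which guides cells to lymph nodes (-3.20, SE 0.27).

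The region around Prg2 and Prg3 was likewise mixed. The pair stand side by side on chromosome 2. The protein-coding genes on either side, named for their place and not for their values, both fell. Slc43a3, a nucleobase transporter, measured 234.9 ± 10.8 CPM in Con and 85.5 ± 9.78 in KO (-1.46 on the log2 scale, SE 0.10, edgeR adjusted p = 6.69e-07). P2rx3, an ATP-gated channel, went from 14.2 ± 4.65 to 2.55 ± 0.391 CPM (-2.48, SE 0.28, adjusted p = 2.45e-05).

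The windows before Ccr3 (chr9:124021721-124021970, plus strand, GRCm38.p6) and Prg3 (chr2:84987965-84988214, plus strand) are shown because they hold the core motif of GATA factors. Capitals mark GATAA or its reverse complement TTATC.
Ccr3: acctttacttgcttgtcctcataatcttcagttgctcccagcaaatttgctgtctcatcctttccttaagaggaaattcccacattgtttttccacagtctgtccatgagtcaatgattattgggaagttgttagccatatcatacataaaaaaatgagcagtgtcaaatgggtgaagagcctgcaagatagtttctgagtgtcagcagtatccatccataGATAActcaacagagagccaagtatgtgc
Prg3: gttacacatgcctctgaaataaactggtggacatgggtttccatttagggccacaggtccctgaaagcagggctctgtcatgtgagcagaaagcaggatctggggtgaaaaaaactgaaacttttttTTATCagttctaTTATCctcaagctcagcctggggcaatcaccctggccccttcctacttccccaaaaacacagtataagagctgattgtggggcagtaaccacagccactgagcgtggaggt
Ccr3 holds 1 match, 29 to 25 bases before the listed start, and Prg3 holds 2. The Ccr3 window lies inside the longer RefSeq model of that gene, which has an earlier start. The windows of Ear1, Ear2 and Ear6 given above hold none. GATAA occurs on either strand in 22.6% of all 32851 windows of this length. GAGGAA, a core of the PU.1 motif, was found in the Ccr3 window alone among the 5 and occurs in 23.3% of all windows. None of these matches overlaps another. They are matches of letters and were not tested as sites.

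Genes on a list of transcription factors and regulators of the lineage were mostly higher in KO. The list includes the pseudokinase gene Trib1. Some of its genes, such as Gata1 and Cebpe, also act in other blood cells, so it is not particular to eosinophils. Of 16 tested, 13 rose (11 with library size only), 2 fell and 1 did not pass (median log2 fold change 1.46), where 39.6% of all genes rose. Gata1, on which eosinophils and red cells depend, went from 70.2 ± 13.6 to 111.8 ± 8.72 CPM (0.67, SE 0.13, edgeR adjusted p = 0.00105), and did not pass with library size only (0.31, adjusted p = 0.0667). Cebpe, needed for late granulocyte granules, went from 20.9 ± 0.691 to 229.4 ± 39.9 CPM (3.46, SE 0.14, adjusted p = 2.93e-08). Trib1, a pseudokinase that acts on C/EBP alpha, rose by 4.61 (SE 0.22), Irf8 by 2.47 (SE 0.12) and Spi1, which encodes PU.1, by 1.62 (SE 0.09). Gata2, active in progenitors, mast cells and basophils, fell from 286.1 ± 54.6 to 41.3 ± 6.46 CPM (-2.79, SE 0.16, adjusted p = 4.08e-07), and Stat5a fell by 1.55 (SE 0.16). Gata1 was named after its values were seen.

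Of 8 listed cytokines that act on eosinophil growth, 3 were in the table, and these 3 fell (42.4% of all genes fell). Il13 had 313, 187 and 175 counts in Con and 1, 1 and 4 in KO (log2 fold change -6.08, SE 0.44, edgeR adjusted p = 1.2e-06). Il4 had 263 counts over Con and 1 over KO, a ratio of 167 (exact 95% counting interval 29.8 to 6630). Csf2, which encodes GM-CSF, had 119 and 3, a ratio of 25.2 (8.42 to 124). All KO counts of Il4 and Csf2 were in KO replicate 3. Interleukin 5 was not analysed here.

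The receptor chain gene shared by interleukin 5, interleukin 3 and GM-CSF fell. Csf2rb measured 2197 ± 117 CPM in Con and 279.2 ± 63.7 in KO (-2.98 on the log2 scale, SE 0.16, edgeR adjusted p = 1.67e-07), and its interleukin 3 specific copy Csf2rb2 from 983.8 ± 9.39 to 73.1 ± 19.0 CPM (-3.75, SE 0.17, adjusted p = 9.58e-08). These are close copies whose reads may be split. Il3ra, the interleukin 3 specific chain, stood at 0.23 (SE 0.10, edgeR adjusted p = 0.0641). Its call depended on the setting: it passed with median-of-ratios scaling in edgeR (adjusted p = 0.0315), with DESeq2 (0.0466) and without KO replicate 1 (0.0463), and was at -0.12 with library size only (0.298). Of the 13 receptor genes of that list, 5 rose, 5 fell and 3 did not pass, against 39.6% and 42.4% of all genes. The split was 3 higher and 6 lower with library size only, and 7 higher and 5 lower with median-of-ratios scaling and with DESeq2. The other two that did not pass were Siglecf and the integrin gene Itgb7 (0.37, SE 0.16, edgeR adjusted p = 0.0568), which passed with median-of-ratios scaling, with DESeq2, with the replicate number as a block (adjusted p = 0.0425) and without KO replicate 1 (0.51, adjusted p = 0.00766). Among those that rose, the formyl peptide receptor gene Fpr2, shared with neutrophils, stood at 3.13 (SE 0.11). Among those that fell, C3ar1, the receptor for complement C3a, stood at -6.26 (SE 0.18). The integrin gene Itga4 rose by 0.61 (SE 0.15, adjusted p = 0.00339), and did not pass with library size only (0.25, adjusted p = 0.124). Il3ra and Itgb7 were named after their values were seen.

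Outside the Ear rows, 4 genes of the ribonuclease A list, which includes their inhibitor, were tested. Among them, Rnase6 rose (2.22, SE 0.18, edgeR adjusted p = 2.27e-06), Rnh1, the cytosolic inhibitor of these enzymes, fell from 416.6 ± 53.2 to 172.1 ± 3.85 CPM (-1.28, SE 0.10, adjusted p = 2.42e-06), and 2 did not pass. Rnase6 encodes an antimicrobial ribonuclease of monocytes. Rnase2b, another eosinophil ribonuclease, had 8 counts over Con and 7 over KO.

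Of 16 granule genes of other granulocytes, 16 rose in KO, where 39.6% of all genes rose. It was 15 with library size only, with Con replicates 2 and 3 summed, and without Con replicate 2 or 3 or KO replicate 1 or 2. Their median log2 fold change was 5.51, but they ranged from 0.60 for Ctsg to 10.48 for Camp. The 5 eosinophil granule genes lay between 0.86 and 4.17, inside that range. Markers of other cells moved with the groups, as did most genes (39.6% of all genes higher and 42.4% lower in KO). The summed late neutrophil markers (15 of 15 higher) took 2499 to 2660 CPM in Con and 170300 to 195500 CPM in KO. Promyelocyte markers (8 of 8 higher) took 732.0 to 754.1 and 4644 to 6987 CPM, and erythroid markers (9 of 9 higher) 127.1 to 205.4 and 16990 to 24080 CPM. Monocyte and macrophage markers (8 higher and 5 lower of 13) took 2703 to 3462 and 3384 to 4664 CPM. Of 10 basophil and mast cell markers, 9 were lower and 1 was higher, and they took 2340 to 3017 CPM in Con and 1244 to 1769 CPM in KO. The one that rose was Hdc, the enzyme that makes histamine (268.3 ± 34.2 and 887.2 ± 175 CPM), while the basophil protease gene Prss34 fell (607.1 ± 109 and 328.8 ± 85.3 CPM). T and NK cell markers took 365.6 to 513.0 and 86.2 to 122.3 CPM, although 7 of 9 were higher in KO. The 2 that were lower held most of the Con sum. They were Gzmb, a granzyme of cytotoxic cells (302.7 ± 96.7 and 7.1 ± 0.768 CPM), and Cd28 (113.1 ± 13.9 and 5.52 ± 2.5 CPM). B cell markers (4 of 6 higher) took 44.2 to 76.2 and 91.7 to 247.8 CPM, and megakaryocyte markers (2 of 4 higher, 1 lower) 189.5 to 222.3 and 120.4 to 231.8 CPM. Vpreb2 and Ncr1 were at 0 in all Con libraries, and no other marker of these lists was at 0 in a whole group. The part of these cells in the levels of the 6 genes was not tested.

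Genes of the most similar pattern were sought among all tested genes other than the 6. Over the 6 libraries, the highest Pearson correlations of log2 CPM with Ccr3 belonged to LOC115488029 (0.9997), Uqcc3, Apoe, Hba-a1 and Vstm4 (0.9991). With Prg2 they belonged to Tuba4a (0.9996), Apon, Cops9, Grap2 and Cenpa, and with the summed Ear copies to Ogfrl1 (0.9999), Stag2, Stag3, Triobp and Fis1. The libraries form 2 groups, so these values describe mainly the step between them. Above 0.99 there were 666 genes with Ccr3, 178 with Prg2 and 779 with the summed Ear copies. Which genes lead therefore says nothing about a cell type.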

How the data were processed

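Per the labels' protocols, TRIzol RNA of 6 bone marrow samples went into BGI dual-mode mRNA libraries. The authors deposited expected counts per gene, unscaled, for 9295 genes, and 1449 genes hold values that are not whole, per the file headers and values. The sources used here do not give an aligner or counter. A human build, GRCh38, is named in the submitters' processing notes, and symbols are those of mouse. All 6 columns were matched by name and 0 were left unused.

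Counts were rounded. Con and KO were compared with edgeR 4.0.16 (R 4.3.3): TMM scaling, the default filterByExpr by group, a robust quasi-likelihood fit without covariates, two-sided, and Benjamini-Hochberg adjustment over 8358 genes with a threshold of 0.05. Fold changes are log2, KO less Con, errors of levels are SD of 3 libraries, and intervals are exact. The SE of a log2 fold change is its absolute value divided by the square root of the quasi-likelihood F statistic. It is thus derived from that statistic and is not a direct error of the coefficient. The fit was tested on simulated data in which few genes differed between the groups. That does not show how the scaling holds where most genes differ, as here. The 6 genes and all lists were chosen with earlier results of these data known. Named genes were the 6, Papola, listed eosinophil genes, ligands and cytokines, the 4 smallest adjusted p per direction of each other list, the 2 most abundant markers of each cell type, and the 5 genes of most similar pattern (log2 CPM, prior count 2); others are said to be named otherwise. Alternatives were other scalings and filters (10 counts in 3 libraries), DESeq2 1.42.0, limma 3.58.1 voom, cutting down instead of rounding, leaving out each library, summing Con replicates 2 and 3, and a replicate block. Same-numbered libraries did not deviate together over all genes (correlations -0.002, 0.028 and -0.004, against -0.057 to 0.046 for other pairs). A pairing that touches few genes would not show there, so pairing by number is not excluded. Symbols were matched to RefSeq and transcripts to GENCODE M21. One result is not reported here.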

Additional observations from a re-analysis of the deposited data

How the results depend on the processing

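With library size as the only scaling, which lowered the median of all log2 fold changes from -0.06 to -0.41, the log2 fold change moved by more than the replicate spread to 3.51 for Ear2, 1.86 for Ear6, 0.88 for Prg2, 0.50 for Prg3 and 3.09 for the summed Ear copies, and the share of higher genes among those past the threshold was 35.7% in place of 48.3%. Without a filter on low counts, 4 genes of the ribonuclease list other than the Ear members passed in place of 2, since 7 were tested in place of 4. The other 251 of 257 alternative values stayed within the replicate spread or close to the main count. Leaving out 1 library gave 7.27 to 7.63 for Ccr3, 4.02 to 4.43 for Ear1, 1.14 to 1.32 for Prg2 and 0.73 to 1.02 for Prg3, and 6485 to 6855 genes past the threshold. With the replicate block 6766 genes passed in place of 6854, and Itgb7 was the only gene given with a test in the text whose call changed. At 7.77 to 13.2 counts per CPM, Ccr3 in Con, Ear10, and Ccl24, Ccl7, Il13, Il4 and Csf2 in KO rest on few counts, and their folds are imprecise.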
